A study of Homo sapiens with 4 samples.

Results

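The genes described here encode the NF-κB subunits NFKB1, NFKB2, REL, RELA and RELB and the IκB proteins NFKBIA, NFKBIB, NFKBIE, NFKBIZ and BCL3. They were chosen by name, and their probe sets (groups of array probes for 1 transcript) were taken where the platform's annotation lists 1 gene only. This gave 20 of 54675 probe sets, for 9 of 19775 named genes. BCL3, a nuclear IκB protein, has 2 probe sets, both listed for a second gene (MIR8085) as well, and is therefore not described. RNA of THP-1 cells, an established human line of monocytic leukemia origin, was measured on 4 arrays. The cells expressed either Siglec-14 (Siglec-14/THP-1) or Siglec-5 (Siglec-5/THP-1) and were kept for 6 h in serum-free medium with heat-killed nontypeable Haemophilus influenzae (NTHi) strain 2019, at 100 bacteria per cell, or without bacteria. The samples are named Siglec-14,NTHi[+], Siglec-14,NTHi[-], Siglec-5,NTHi[+] and Siglec-5,NTHi[-], each with 1 array. No source used here says whether a subline is 1 clone or which promoter drives its Siglec.

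NF-κB is a family of dimeric transcription factors. In resting cells the dimers are held in the cytoplasm by IκB proteins, and the precursors of the NFKB1 and NFKB2 products carry an IκB-like part of their own. Bacterial ligands of Toll-like receptors activate the IKK kinases, IκB is marked for degradation, and the freed dimers enter the nucleus and bind κB sites in DNA. Several IκB and subunit genes are themselves NF-κB targets, so that the pathway rebuilds its own inhibitors. In monocytes it drives the transcription of cytokine, chemokine and survival genes.

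Values are signal intensities on a linear scale, as deposited. By the study's methods signals were standardized on their total, but the sums below are unequal, and whether the values carry that step is not known here. The sum of all signals outside the controls ran from 12599540 to 13903154 and the median from 15.1 to 16.5 over the 4 arrays. A signal at or above the median of all signals, 16.01, was taken as above the floor. With 1 array per sample no replicate error can be given for a single signal, and the number of arrays limits the precision. Folds between a pair of arrays have no test. A limma fit over all 4 arrays, with an additive term each for cell line and for NTHi, tests a response shared by both lines or a line difference shared by both conditions, with 1 residual degree of freedom per probe set. Its standard errors come from the trend of variance with intensity over 31989 probe sets, not from a gene's own values. That variance is the departure of the 4 arrays from the additive terms. The p-values therefore measure no spread between replicate cultures or arrays. The words rose and higher in the shared fit refer to its Benjamini-Hochberg adjusted p under 0.05, and without that trend 0 probe sets passed in either term of the limma fit, 1940 for NTHi and 3740 for line at an unadjusted p under 0.05. SIGLEC5 is the only measured Siglec of the pair, and its probe set gave 21.3 and 19.5 in Siglec-14,NTHi[-] and Siglec-14,NTHi[+] and 4.13 and 21.6 in the Siglec-5 counterparts. The signals lie below or just above the floor and did not mark Siglec-5/THP-1. Whether the probes match the expressed construct is not known, so the names of the lines rest on the sample labels. Of 9 monocytic markers 7 were measured and 5 lay above the floor on all arrays. The 7 had a summed signal of 4722 to 6119, of which LYZ made up 3036 to 3430 and MPO 1152 to 2408. CD14, the lipopolysaccharide coreceptor, and FCGR1A lay below the floor on every array. Of 12 markers of other cell types 10 were measured and 5 to 7 of them reached the floor on an array. The 10 had a summed signal of 336 to 481, of which COL1A1 made up 132 to 266. EPCAM (64.2 to 88.3), the B cell marker CD79A (28.7 to 37.4) and the globin HBB (27.4 to 43.7) also lay above the floor on all arrays, and the other 6 measured genes of that list, CD2, CD3D, CD3E, MS4A1, KRT5 and COL1A2, each gave at most 22.6.

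The stretch before the transcription start is shown for the genes of this group that share a κB-type run of letters there. Whether the run bears on the response to NTHi was not tested. Sequences are from RefSeq (GRCh38.p14), read on the strand of the gene, 5′ to 3′. The 250 bases before the start of NFKBIA hold 1 match to the κB consensus (10 letters, either strand), and the run searched, GGGANTTTCC, is that match with the fifth letter left free. It was searched on both strands in the same window of all genes, every hit being also a hit of the κB consensus, and capitals mark it. Windows of 60 bases are shown for the first start of a gene and of 30 bases for a later one.
NFKB1, chr4:102501285-102501344, plus strand: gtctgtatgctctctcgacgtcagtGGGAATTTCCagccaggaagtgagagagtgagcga
REL, chr2:60881503-60881562, plus strand: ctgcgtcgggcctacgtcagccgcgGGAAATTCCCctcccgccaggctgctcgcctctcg
NFKBIA, chr14:35404796-35404855, minus strand: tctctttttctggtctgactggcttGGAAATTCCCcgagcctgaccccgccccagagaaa
NFKBIZ, chr3:101827742-101827801, plus strand: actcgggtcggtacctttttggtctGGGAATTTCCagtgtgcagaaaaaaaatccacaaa
NFKB2, start 3, chr10:102395674-102395703, plus strand: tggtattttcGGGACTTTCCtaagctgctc
NFKBIB, start 2, chr19:38899931-38899960, plus strand: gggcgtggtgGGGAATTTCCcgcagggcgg

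Of the 8 genes of the group with a promoter sequence, BCL3 among them, 6 held the run, NFKBIA by construction. Over all 27305 genes the share was 0.645%. The κB consensus was found for the same count of 6 and for 6.28% of genes. In NFKB1, NFKBIZ and NFKBIB the match reads GGGAATTTCC, and in REL and NFKBIA it is the same run on the opposite strand, GGAAATTCCC. That run was found before 0.176% of all genes, with any annotated start of a gene counted. Counted by start, 5 of 14 member promoters held it, that of NFKBIA by construction, against 0.142% of 35116 promoters. The run lies 49 to 40 bases before the start of NFKB1 and 81 to 72 bases before the start of NFKBIA. The windows of RELA, with 2 annotated starts, and of BCL3 do not hold these letters. RELB and NFKBIE were not in the sequence table. A match of letters is a description and does not show that a factor binds there.

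Stimulation with NTHi was accompanied by higher transcript levels of most subunit and IκB genes in both sublines. In the shared fit, 7 of 9 genes rose with NTHi and 0 fell, against 0.99% of 13936 genes that rose and 0.294% that fell. Of the 18 member probe sets tested 9 rose, against 0.688% of all probe sets, with 0.231% of all falling. NFKB1, NFKB2, REL and RELB rose among the subunits and NFKBIA, NFKBIE and NFKBIZ among the IκB proteins, whereas RELA and NFKBIB did not pass. With cell line left out of the fit 0 members passed for NTHi, 6 of them at an unadjusted p under 0.05. Over all probe sets 220 rose and 74 fell, and 599 and 655 when the arrays were brought to equal sums, where 7 members again rose. The median log2 ratio of the 9 genes was 0.82 in Siglec-14/THP-1 and 1.36 in Siglec-5/THP-1, against 0.08 and -0.11 over all genes.

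**Figure D1:**
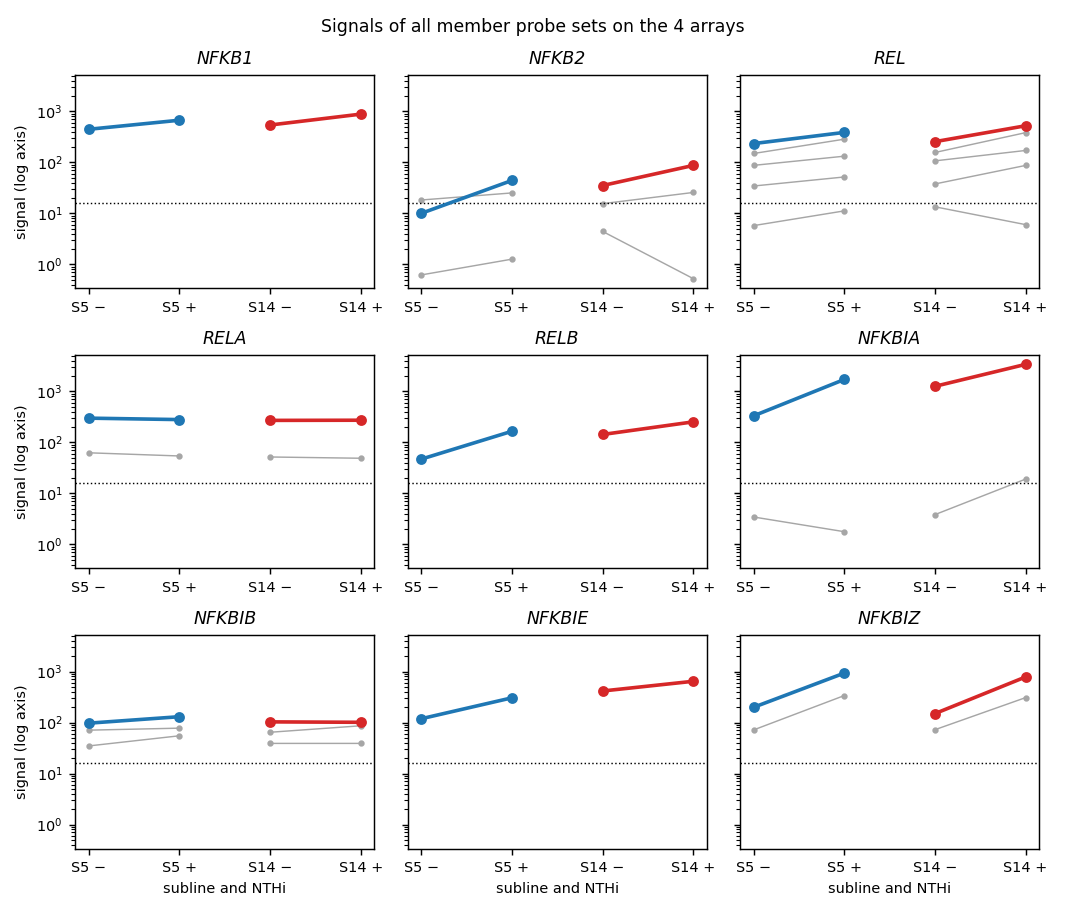
Signals of every member probe set (y, log axis, linear signal units) on the 4 arrays (x; S5 is Siglec-5/THP-1, S14 is Siglec-14/THP-1, minus and plus stand for NTHi). Coloured lines are the probe set with the highest mean signal of the gene (blue Siglec-5/THP-1, red Siglec-14/THP-1), grey lines its other probe sets, and the dotted line is the floor of 16.01. NFKBIZ rises 5.23-fold in Siglec-14/THP-1 and 4.68-fold in the other line, and RELA stays between 270 and 299.

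Among the inhibitors, NFKBIZ had the largest shared response of the members. It encodes IκBζ, a nuclear IκB protein that acts as a cofactor for a subset of NF-κB target genes. Its signal was 150 in Siglec-14,NTHi[-], 784 in Siglec-14,NTHi[+], 199 in Siglec-5,NTHi[-] and 933 in Siglec-5,NTHi[+]. Both stimulated arrays were above both nonstimulated ones. The fold was 5.23 in Siglec-14/THP-1 and 4.68 in Siglec-5/THP-1, and its NTHi term, a log2 difference, was 2.31 (standard error 0.16, adjusted p = 1.68e-45, limma). The second probe set of NFKBIZ gave 72.4 and 308 in Siglec-14/THP-1 and 71.7 and 338 in Siglec-5/THP-1, with folds of 4.26 and 4.72. The order of the lines in fold thus differed between the probe sets.

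NFKBIA encodes IκBα, the cytoplasmic inhibitor that is degraded first upon stimulation and resynthesized under NF-κB control. Its signal was 1259 in Siglec-14,NTHi[-], 3393 in Siglec-14,NTHi[+], 333 in Siglec-5,NTHi[-] and 1716 in Siglec-5,NTHi[+]. The stimulated arrays were highest, and nonstimulated Siglec-14/THP-1 stood closer to stimulated than to nonstimulated Siglec-5/THP-1. NFKBIA was 2.70-fold higher with NTHi in Siglec-14/THP-1 and 5.16-fold higher in Siglec-5/THP-1, with an NTHi term of 1.90 (standard error 0.15, adjusted p = 3.55e-32, limma). A second probe set of NFKBIA lay below the floor on 3 arrays and gave 19.1 in Siglec-14,NTHi[+].

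NFKBIE, which encodes the cytoplasmic inhibitor IκBε, had a signal of 415 in Siglec-14,NTHi[-], 644 in Siglec-14,NTHi[+], 119 in Siglec-5,NTHi[-] and 305 in Siglec-5,NTHi[+]. It was the only member for which nonstimulated Siglec-14/THP-1 exceeded stimulated Siglec-5/THP-1, by the signals as they stand. Its folds with NTHi were 1.55 and 2.57, and the NTHi term was 0.998 (standard error 0.16, adjusted p = 2.01e-07, limma).

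NFKBIB encodes IκBβ, an inhibitor of slower turnover than IκBα. Its signal was 103 in Siglec-14,NTHi[-], 101 in Siglec-14,NTHi[+], 97.2 in Siglec-5,NTHi[-] and 130 in Siglec-5,NTHi[+]. Only stimulated Siglec-5/THP-1 stood apart, 1.34-fold above its nonstimulated counterpart. The NTHi term was 0.20 (standard error 0.20, adjusted p = 0.9998, limma), and the terms of the other 2 probe sets, 0.28 and 0.33, did not pass either. NFKBIB is thus a gene with the run GGGAATTTCC shown above whose transcript did not pass the test.

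NFKB2 encodes p100, the precursor of p52 and part of the noncanonical pathway. Its signal was 34.98 in Siglec-14,NTHi[-], 86.7 in Siglec-14,NTHi[+], 9.98 in Siglec-5,NTHi[-] and 44.0 in Siglec-5,NTHi[+]. The nonstimulated Siglec-5/THP-1 array lay below the floor. NFKB2 was 2.48-fold higher with NTHi in Siglec-14/THP-1 and at least 2.75-fold higher, against the floor, in Siglec-5/THP-1. The NTHi term was 1.73 (standard error 0.33, adjusted p = 4.71e-05, limma), with the signal below the floor taken as it stands. A dimmer probe set of NFKB2 gave 15.4 and 25.6 in Siglec-14/THP-1 and 18.2 and 25.1 in Siglec-5/THP-1 and did not pass (adjusted p = 0.9998), and a further one lay below the floor on all arrays. With the median over its probe sets NFKB2 no longer passed (adjusted p = 0.758).

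RELB, the partner of p52 in the noncanonical pathway, had a signal of 143 in Siglec-14,NTHi[-], 253 in Siglec-14,NTHi[+], 47.0 in Siglec-5,NTHi[-] and 165 in Siglec-5,NTHi[+]. The array of nonstimulated Siglec-5/THP-1 stood far below the other 3. The folds with NTHi were 1.77 and 3.52, and the NTHi term was 1.32 (standard error 0.19, adjusted p = 8.36e-10, limma).

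REL encodes c-Rel, a subunit of hematopoietic cells. Its signal was 254 in Siglec-14,NTHi[-], 520 in Siglec-14,NTHi[+], 233 in Siglec-5,NTHi[-] and 386 in Siglec-5,NTHi[+]. The nonstimulated arrays lay close to each other, and the folds with NTHi were 2.05 in Siglec-14/THP-1 and 1.66 in Siglec-5/THP-1. The NTHi term was 0.88 (standard error 0.16, adjusted p = 1.16e-05, limma). The 4 probe sets of REL above the floor were all higher with NTHi in both lines, 1.60- to 2.45-fold in Siglec-14/THP-1 and 1.504- to 1.91-fold in Siglec-5/THP-1, and on each the fold was larger in Siglec-14/THP-1. Of these, 2 passed, and with the median over all probe sets REL did not (adjusted p = 0.0565).

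NFKB1, which encodes p105, the precursor of p50, had a signal of 538 in Siglec-14,NTHi[-], 880 in Siglec-14,NTHi[+], 444 in Siglec-5,NTHi[-] and 669 in Siglec-5,NTHi[+]. Both stimulated arrays were above both nonstimulated ones. The folds were 1.63 and 1.505, and its NTHi term, 0.65, was the smallest of the members that passed (standard error 0.15, adjusted p = 0.00376, limma).

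RELA encodes p65, whose activity is set mainly by release from IκB and not by its transcript level. Its signal was 270 in Siglec-14,NTHi[-], 272 in Siglec-14,NTHi[+], 299 in Siglec-5,NTHi[-] and 280 in Siglec-5,NTHi[+]. The 4 arrays spanned 0.15 on the log2 scale, the narrowest range of the 9 genes. The NTHi term was -0.04 (standard error 0.16, adjusted p = 0.9998, limma), and a dimmer probe set of RELA ran from 48.9 to 62.6.

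**Figure D2:**
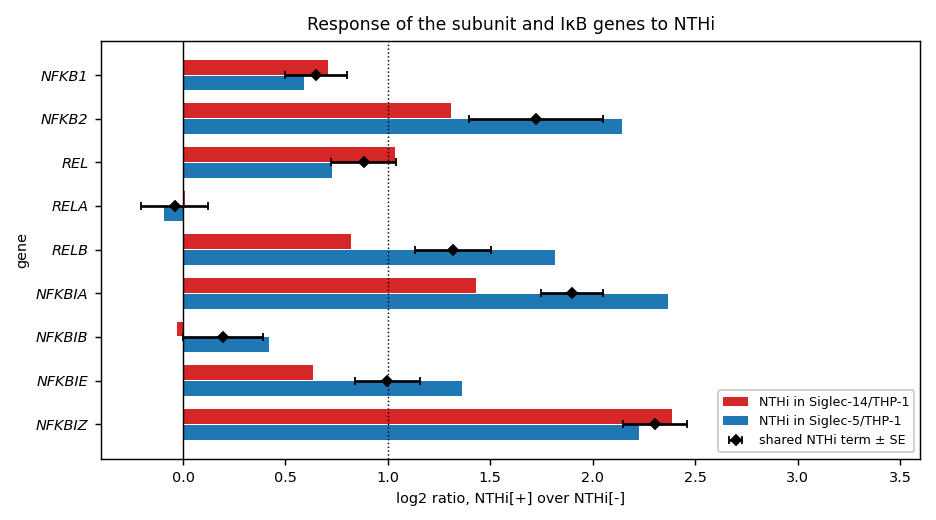
Log2 signal ratio of NTHi[+] to NTHi[-] (x) for the 9 genes (y), on the probe set with the highest mean signal. Red bars are Siglec-14/THP-1 and blue bars Siglec-5/THP-1 (1 array per sample), diamonds with bars are the NTHi term of the limma fit with its standard error, and the dotted line marks a ratio of 2. The bars of RELB, NFKBIA and NFKBIE are longer in Siglec-5/THP-1, with a response difference of -0.73 to -0.99, and those of RELA lie near 0. The bar of NFKBIB ends at -0.03 in Siglec-14/THP-1 and at 0.42 in Siglec-5/THP-1. The bar of NFKB2 in Siglec-5/THP-1 rests on a signal below the floor.

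By fold alone, NTHi raised the signal of 4 members 2-fold or more in Siglec-14/THP-1, where 3.5% of genes were higher and 3.39% lower by that fold. In Siglec-5/THP-1 it did so for 5 members, where 3.19% of genes were higher and 4.06% lower. NFKB2, NFKBIA and NFKBIZ reached 2-fold in both lines, against 0.561% of all genes. The log2 response of RELB, NFKBIA and NFKBIE was smaller in Siglec-14/THP-1 than in Siglec-5/THP-1, by 0.99, 0.94 and 0.73. For NFKB2 the size of this difference is not known, since 1 signal lies below the floor, and its dimmer probe set had log2 responses of 0.73 in Siglec-14/THP-1 and 0.46 in Siglec-5/THP-1, the opposite order. The response of REL was larger in Siglec-14/THP-1 by 0.31, and by 0.08, 0.36 and 0.62 on its other probe sets above the floor. NFKB1 and NFKBIZ differed by 0.12 and 0.16, and the second probe set of NFKBIZ gave -0.15. The medians over all genes were 0.08 in Siglec-14/THP-1 and -0.11 in Siglec-5/THP-1. They lie further apart than the differences of NFKB1 and NFKBIZ and the smallest of REL. With 1 array per sample these differences could not be tested, and they are not part of the standard errors above.

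The sublines differed in a subset of the same genes. In the shared fit 4 of 9 members were higher in Siglec-14/THP-1 and 0 were lower, against 6.24% and 4.95% of 13936 genes. These were NFKBIA, NFKBIE, NFKB2 and RELB, and each of them also rose with NTHi. Over all probe sets 1501 were higher and 1217 lower in Siglec-14/THP-1, but 1777 and 3987 when the arrays were brought to equal medians, where 4 members were higher and 1 lower. Of the 18 member probe sets 4 were higher, against 4.69% of all, and 0 lower, against 3.8%. Markers moved with the line too. Of the 5 monocytic markers tested ITGAM was higher in Siglec-14/THP-1 (290 and 353 against 198 and 167) and MPO lower (1152 and 1365 against 2408 and 2186), and of 7 tested markers of other cell types COL1A1 was higher (266 and 257 against 141 and 132). The part of such differences between the sublines in the results below was not tested. Fewer cells in a given state and less RNA per cell cannot be told apart in these samples.

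Without NTHi the signal of NFKBIA was 3.79-fold higher in Siglec-14/THP-1, and with NTHi 1.98-fold. Its line term was 1.45 (standard error 0.15, adjusted p = 3.63e-19, limma). NFKBIE was 3.50-fold and 2.11-fold higher, with a line term of 1.44 (standard error 0.16, adjusted p = 2.68e-17, limma). NFKB2 was at least 2.18-fold higher without NTHi, against the floor, and 1.97-fold higher with NTHi, and its line term of 1.39 was lost with the median over its probe sets (adjusted p = 0.000616, and 0.837 with the median, limma). RELB was 3.04-fold and 1.53-fold higher, with a line term of 1.11 (standard error 0.19, adjusted p = 1.83e-07, limma).

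On their brightest probe sets all 4 were therefore further apart without NTHi than with it. The dimmer probe set of NFKB2 was not higher in Siglec-14/THP-1 without NTHi (15.4, below the floor, against 18.2). With NTHi it gave 25.6 against 25.1. At least 2-fold differences between the lines were seen for 4 members without NTHi, where 6.23% of genes were at least 2-fold higher and 3.97% lower in Siglec-14/THP-1. With NTHi NFKBIE reached 2-fold (2.11), where 7.63% were higher and 3.37% lower, and NFKBIA (1.98) and NFKB2 (1.97) lay just under it. NFKBIE was thus 2-fold higher in both conditions, as were 3.08% of genes, but with the arrays at equal medians 0 members reached 2-fold between the stimulated lines. In stimulated Siglec-5/THP-1 the signal of these genes came near that of nonstimulated Siglec-14/THP-1, with a ratio of 1.36 for NFKBIA, 1.26 for NFKB2, 1.16 for RELB and 0.735 for NFKBIE. The same ratio was 1.04 for RELA, 1.24 for NFKB1, 1.26 for NFKBIB and 1.52 for REL. Such ratios were thus not particular to the 4 genes that passed the line term. For NFKBIZ the ratio was 6.23.

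The remaining 5 genes did not pass the line term. NFKB1 was 1.21-fold and 1.32-fold higher in Siglec-14/THP-1 without and with NTHi, and REL 1.09-fold and 1.35-fold. With quantile normalization, equal sums or equal trimmed means, NFKB1 (0.38 to 0.39) and REL (0.31 to 0.32) were higher in Siglec-14/THP-1. NFKBIZ had signals in Siglec-14/THP-1 of 0.751 and 0.840 times those in Siglec-5/THP-1, with a line term of -0.33 (standard error 0.16, adjusted p = 0.211, limma). It was lower in Siglec-14/THP-1 under the same 3 scalings and with equal medians (-0.40 to -0.29), and its second probe set had ratios of 1.01 and 0.91. RELA and NFKBIB had line terms of -0.09 and -0.14. NFKBIZ is thus the member in which a large response to NTHi went with no higher signal in Siglec-14/THP-1.

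**Figure D3:**
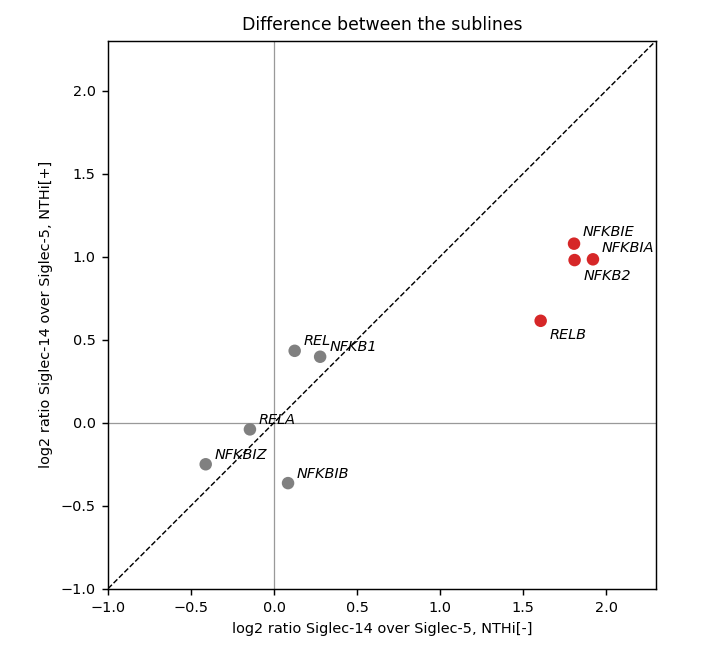
Log2 signal ratio of Siglec-14/THP-1 to Siglec-5/THP-1 without NTHi (x) and with NTHi (y) for the 9 genes, 1 array per sample. Red points passed the line term of the limma fit, grey points did not, and the dashed line marks equal ratios. NFKBIA, NFKB2, NFKBIE and RELB lie at 1.61 to 1.92 on the x axis and 0.61 to 1.08 on the y axis, below the dashed line, and the x value of NFKB2 rests on a signal below the floor.

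On the brightest probe set the order of the 4 arrays differed between members. NFKB1, NFKB2, REL, RELB, NFKBIA and NFKBIE, 6 of 9, were highest in Siglec-14,NTHi[+] and lowest in Siglec-5,NTHi[-], an order found for 9.49% of genes. NFKBIZ was highest in Siglec-5,NTHi[+] and lowest in Siglec-14,NTHi[-], an order whose share over all genes was not counted. Its second probe set was also highest in Siglec-5,NTHi[+] but lowest in Siglec-5,NTHi[-] (71.7, against 72.4 in Siglec-14,NTHi[-]). The dimmer probe set of NFKB2 was lowest in Siglec-14,NTHi[-] (15.4, below the floor, against 18.2 in Siglec-5,NTHi[-]).

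Likeness of pattern was measured as the Euclidean distance between log2 signals over the 4 arrays, each gene centred on its own mean, among 7341 genes at or above the 75th percentile of signals (105) on all arrays. Of the 6 members whose signals spanned at least 2-fold over the arrays, NFKB2 is left out, since 1 of its signals lies below the floor. RELB was nearest to PTGER4, the prostaglandin E2 receptor EP4 (0.14), which was also among the nearest of NFKBIE (0.41). PTGER4 had 429 and 809 in Siglec-14/THP-1 and 151 and 473 in Siglec-5/THP-1, without and with NTHi. The gene nearest to NFKBIE was CD83, a marker of mature dendritic cells (0.25), and that of NFKBIA was CXCL8, the neutrophil chemokine IL-8 (0.60), followed by the lymphotoxin gene LTB (0.66). RELB was next nearest to C3AR1, the C3a receptor (0.35). REL was nearest to ZC3H12C (0.09) and RHOBTB3 (0.18). NFKBIZ had no close neighbour, with 1.30 to GPR84 and 1.31 to TNFAIP3. These distances rest on 4 arrays and are a description.

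Around these genes, the kinases and the ubiquitin ligase that act on IκB were counted beside the targets of the pathway, to be read against the 0.99% of all genes that rose with NTHi and the 6.24% higher in Siglec-14/THP-1. Of 11 IKK and upstream kinase genes 10 were tested, 2 rose with NTHi and 0 passed the line term. MAP3K8 (TPL2), the kinase held by p105, had signals of 61.0 and 110 in Siglec-14/THP-1 and 86.2 and 142 in Siglec-5/THP-1, with an NTHi term of 0.78 (standard error 0.20, adjusted p = 0.0161, limma). IKBKE, which encodes the IKK-related kinase IKKε, had 204 and 304 against 145 and 251, with an NTHi term of 0.69 (standard error 0.17, adjusted p = 0.00715, limma). Neither passed with the median over its probe sets. CHUK, IKBKB and IKBKG, the subunits of IKK, had NTHi terms of -0.04, 0.01 and -0.07. Of the 5 genes of the ubiquitin ligase that marks IκB, BTRC, FBXW11, SKP1, CUL1 and RBX1, 0 passed in either term, with 0 of them at least 2-fold different with NTHi. Their NTHi terms ran from -0.04 to 0.10.

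Of 9 other IκB-related genes and regulators of the subunits 1 rose with NTHi, NFKBIL1, which encodes an IκB-like protein. Its signal was 76.6 and 102 in Siglec-14/THP-1 and 30.4 and 88.5 in Siglec-5/THP-1, with an NTHi term of 0.98 (standard error 0.23, adjusted p = 0.00368, limma). It was also higher in Siglec-14/THP-1 (0.77, adjusted p = 0.0131, and 0.0573 with quantile normalization, limma). NKRF, a repressor of NF-κB target promoters, was lower in Siglec-14/THP-1, with 436 and 390 against 674 and 523 (line term -0.52, standard error 0.15, adjusted p = 0.0113, limma). NFKBID, a nuclear IκB protein, had signals of 38.8 to 79.2 and passed in neither term.

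Of 27 textbook NF-κB targets 26 were measured and 24 tested. BIRC3 was not measured here, and IL6 (3.73 to 15.4) and LTA (1.60 to 1.95) lay below the floor on all arrays. Of the 24, 21 passed the NTHi term, all upward with NTHi, and 21 the line term, all higher in Siglec-14/THP-1. The list was chosen with earlier results of these data known, and the study had picked some of its genes on these arrays, so its counts are not independent evidence. The median log2 ratio with NTHi was 1.25 in Siglec-14/THP-1 and 1.63 in Siglec-5/THP-1, and that between the lines was 1.42 without and 1.17 with NTHi. The largest NTHi terms were those of the chemokine genes CCL20 (2.53) and CCL2 (2.19), the cytokine gene TNF (2.15, with a signal of 3.54 in Siglec-5,NTHi[-], below the floor), the adhesion receptor gene ICAM1 (2.12), TNFAIP3 (2.12), which encodes a deubiquitinase that restrains NF-κB, and LTB (1.93). With a robust trend LTB passed neither term (adjusted p = 1 for NTHi and 0.665 for line, limma). TNFAIP3 had signals of 392 and 1142 in Siglec-14/THP-1 and 153 and 985 in Siglec-5/THP-1, without and with NTHi, and ICAM1 had 168 and 625 against 31.7 and 161. Nonstimulated Siglec-5/THP-1 was lowest for both, as on the brightest probe sets of NFKB1, NFKB2, REL, RELB, NFKBIA, NFKBIB and NFKBIE. PLAU and IRF1 passed the line term only, with 0.72 and 0.63. GADD45B passed in neither.

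**Figure D4:**
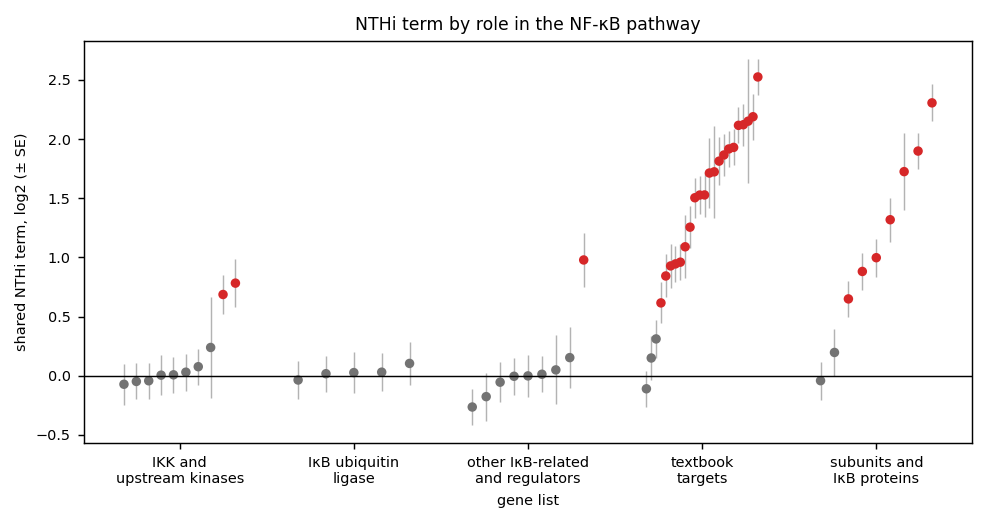
NTHi term of the limma fit on the log2 scale with its standard error (y) for the tested genes of each list (x), 1 point per gene sorted by size within a list. Red points passed an adjusted p under 0.05 and grey points did not. The red points are 2 of 10 kinase genes, 0 of 5 ligase genes, 1 of 9 other regulators, 21 of 24 targets and 7 of 9 subunit and IκB genes.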

How the data were processed

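Total RNA (250 ng per sample) of 4 samples was hybridized to GeneChip U133 Plus arrays. Signals were quantified by the authors in GeneChip Operating Software (GCOS; version not given) and, per their methods, standardized on the total. The deposited values are linear signal intensities, 1 per probe set. Since their sums differ, it is open whether that step is in these values, which were used without further scaling. Groups came from the sample labels. Probe sets were named with the platform's annotation, and 62 control probe sets were left out. The members and gene lists were chosen with earlier results of these data known. A gene was represented by its probe set with the highest mean signal.

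Log2 intensities of 31989 probe sets that reached the floor on 1 or more arrays were fitted with limma 3.58.1 (R 4.3.3), with an intensity trend and infinite prior degrees of freedom. Benjamini-Hochberg adjustment was made over all of them. No p is given for a probe set whose mean signal lies below the floor. Genes of the lists were named by size of the term (up to 6 for NTHi and up to 4 for line only). Alternatives were 4 scalings, a pseudocount of 16, other floors, the median over probe sets, no trend, a robust trend, 1 term left out, and folds of 1.5 and 3. Tables and plots were made in Python 3.11.15 (numpy 2.4.6, pandas 2.3.3, matplotlib 3.10.9).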

Additional observations from a re-analysis of the deposited data

Results flagged for a closer look

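For 2 members the signal of the brightest probe set moved in opposite directions with NTHi in the sublines. The log2 response of NFKBIB in Siglec-14/THP-1 minus that in Siglec-5/THP-1 was -0.45, from -0.03 and 0.42, whereas another probe set gave 0.42 and 0.13, higher with NTHi in both lines. For RELA it was 0.10, from 0.01 and -0.09, whereas its other probe set gave -0.08 and -0.21, lower with NTHi in both. Neither difference was tested, since each response rests on 1 pair of arrays. The medians over all genes also differed in sign, 0.08 in Siglec-14/THP-1 and -0.11 in Siglec-5/THP-1. They lie further apart than the responses of RELA on its brightest probe set.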

How the results depend on the processing

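No paired analysis was possible because the labels give no replicate numbers to pair by, and the cell line term of the fit already sets NTHi against its absence within each line. No array could be left out, since each is the only one of its condition. The count of members that rose with NTHi, 7, was 5 to 7 under the other scalings, floors, the pseudocount, the median over probe sets and the robust trend, but 0 without the trend (7 at an unadjusted p under 0.05) and 0 with cell line left out (6 unadjusted). The count that passed the line term, 4, became 7 with quantile normalization, with equal sums and with equal trimmed means, and 0 without the trend (4 unadjusted), and was 3 to 5 in the other settings. The count of members at least 2-fold different with NTHi in Siglec-14/THP-1 was 4. It became 3 with quantile normalization, equal sums, equal trimmed means, the pseudocount or the floor at the 75th percentile. It was 2 with the median over probe sets, 7 at 1.5-fold and 1 at 3-fold. In Siglec-5/THP-1 the count of 5 ran from 4 to 7, and that between the nonstimulated lines, 4, from 3 to 4. Between the stimulated lines the count of 1 became 0 with equal medians, 2 with the median over probe sets, 4 at 1.5-fold and 0 at 3-fold. The NTHi term of RELA turned to 0.0157 with equal medians and the line term of NFKBIB to 0.00861 with the median over probe sets, neither of which passed in any setting. Over all probe sets, the calls for NTHi were 220 higher and 74 lower, 489 and 132 with equal medians, 352 and 176 with quantile normalization, 599 and 655 with equal sums and 912 and 428 with equal trimmed means. Those for the line were 1501 and 1217, and 1777 and 3987, 2506 and 2746, 3109 and 3075, and 3217 and 3079 in the same order. Signals below the floor limit NFKB2 in Siglec-5,NTHi[-].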
